A study of Mus musculus with 6 samples.

Results

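The RNA levels of 10 genes of the choice between the CD8 and the CD4 lineage were examined in CD8+ T cells of WT and BIT mice. The genes were picked by symbol from the 78275 genes of the deposited table, and all 10 were found and had enough counts to be tested among 16105 genes. They are the coreceptor genes *Cd8a*, *Cd8b1* and *Cd4*, the Runx genes *Runx1* and *Runx3* with their partner *Cbfb*, the transcription factor genes *Zbtb7b*, *Gata3* and *Patz1*, and *Cd40lg*. RNA had been sequenced from TCRβhigh CD4-CD8+ T cells sorted at above 98% purity from the lymph nodes of 3 mice of each genotype, and each mouse gave 1 library. The WT mice were C57BL/6. BIT mice carry on both chromosomes an allele of *Psmb8*, which encodes the immunoproteasome subunit β5i, whose sequence was replaced in the C57BL/6 genome with that of *Psmb11*, which encodes the thymoproteasome subunit β5t, and they were documented from 1 mouse line unless stated otherwise. As a germline allele it was carried by thymic epithelial cells, by hematopoietic cells and by the sorted T cells themselves. The mice were 9 to 10 weeks old and were labeled as male. The labels give lymph nodes as the source, while their protocol names lymph nodes and spleens.

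Thymocytes that express both CD4 and CD8 become T cells of 1 of these lineages during positive selection. MHC class I-restricted thymocytes keep the CD8 coreceptor, a dimer of CD8α and CD8β that binds MHC class I, whereas MHC class II-restricted thymocytes keep CD4. Runx3, bound to CBFβ, silences *Cd4* and *Zbtb7b* in the CD8 lineage, and ThPOK, the product of *Zbtb7b*, holds back Runx3 and CD8-lineage genes in the CD4 lineage. GATA3 acts upstream of *Zbtb7b*, MAZR (encoded by *Patz1*) represses it, and the CD40 ligand is a surface product of activated CD4+ T cells. The comparison of BIT with WT mice addressed whether the CD8+ T cells that pass the altered positive selection of BIT mice differ in these genes.

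The libraries held between 37467678 and 52922675 estimated counts, and a count of 0 would allow a level of up to 0.0801 CPM, the unit of counts relative to each library's total, in the shallowest library, a limit of counting error only. The edited locus matched the labels in every library, with 0 counts of *Psmb11* in the WT libraries against between 1226 and 1926 in the BIT libraries, and between 8024 and 10790 counts of *Psmb8* against between 59 and 73. The library of WT replicate 3 went against the label for sex, as it held 66626 counts of *Xist* while 4 genes of the Y chromosome were at 0, and results that rest on it are also given without it. BIT replicate 3 had 125 counts of *Xist* beside 8949 of the Y-chromosome genes, where the other 4 libraries had between 2 and 9 of *Xist*. Of the 8 markers of CD8 T cells, all were detected, with summed levels between 4580 and 5030 CPM in WT and between 4660 and 4960 CPM in BIT libraries. *Cd8a* and *Cd8b1* are among these markers, so that their sum is no separate measure of CD8 T cells for these genes. By limma-voom at an unadjusted p below 0.05, 2 of the 8 were lower in BIT mice and 0 were higher. Of all genes tested, 4.32% were lower at that level. Among markers of double-positive thymocytes, *Rag2* was at 0 counts in all 6 libraries and *Rag1* at no more than 1 count. The summed B cell markers overlapped between the genotypes (between 324 and 361 CPM), as did the myeloid markers (between 10.5 and 36.7 CPM) and *Zbtb16* of NKT cells (at most 0.208 CPM). Of the myeloid markers, *Itgax* was at 20.6 CPM and *Itgam* at 4.93 CPM in WT replicate 3, against at most 6.03 and 1.39 CPM in any other library. The summed γδ T cell markers were higher in all BIT libraries (between 13.8 and 16.7 CPM, against between 8.92 and 11.5 CPM in WT), but without *Scart2* they overlapped (between 5.75 and 7.69 CPM, against between 6.52 and 7.99 CPM). The NK cell markers were lower (between 44.4 and 52.8 CPM, against between 60.1 and 69.1 CPM), with most of the sum from *Klrd1*, which CD8+ T cells also express, and between 3.4 and 4.16 CPM against between 4.18 and 5.26 CPM without it. The sum of the thymocyte markers was that of *Dntt* almost alone, with 354, 386 and 189 counts in WT mice against 99, 87 and 104 in BIT mice, and was at most 0.138 CPM without it. Fewer cells of a type and less RNA per cell cannot be told apart in these bulk libraries.

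Per length, the 10 genes spread over a wide range, with the CD8 coreceptor genes at the top and *Cd4* at the bottom. On the scale of CPM per kb of annotated exon, *Cd8b1* stood first at 505, between 469 and 572 over the 6 libraries, and *Cd8a* second at 215, between 207 and 232. *Cbfb* and *Runx3* followed at 45.1 and 39.2. These levels were 21% and 18.3% of that of *Cd8a*. *Gata3* was at 11.9, *Patz1* at 8.72 and *Runx1* at 4.33 CPM per kb. Between *Runx1* and the next gene, *Zbtb7b*, there was a step of 15.2-fold. *Zbtb7b* at 0.284 and *Cd40lg* at 0.276 CPM per kb did not differ beyond their spread, *Zbtb7b* being higher in 3 of 6 libraries. *Cd4* stood last at 0.104 CPM per kb, 0.0484% of the level of *Cd8a*, and below *Cd40lg* in 6 of 6 libraries. Apart from *Zbtb7b* and *Cd40lg*, neighbors in this order kept it in 6 of 6 libraries, although the ranges of *Cbfb* and *Runx3* and of *Gata3* and *Patz1* overlapped. With the length of the canonical transcript in place of all annotated exons, *Gata3* and *Patz1* changed places and the other 8 genes kept their ranks. On that scale *Zbtb7b* was at 0.662 and *Cd40lg* at 0.276 CPM per kb. The closeness of these genes therefore held only for the length of all annotated exons.

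**Figure D1:**
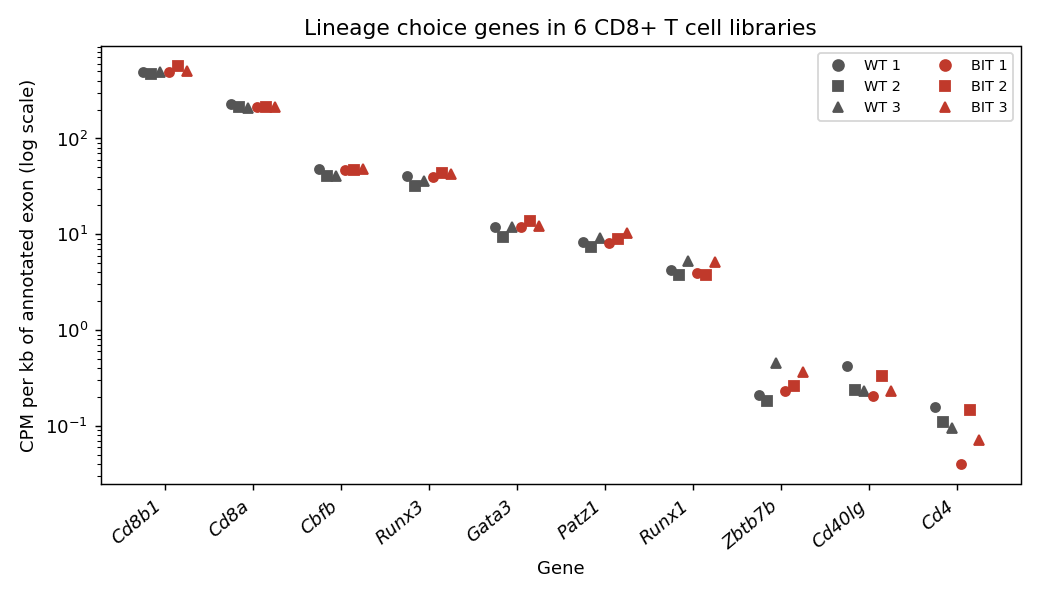
Level of each of the 10 genes in CPM per kb of annotated exon (log axis) in the 3 WT (gray) and 3 BIT (red) libraries, 1 point per library, with genes ordered by their mean. *Cd8b1* and *Cd8a* lie above 200 and *Zbtb7b*, *Cd40lg* and *Cd4* below 1 in every library, and the ranges of both genotypes overlap for each gene.

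The promoters of *Cd8a* and *Cd4* are shown because these coreceptor genes lie at high and low levels in the cells, and that of *Runx1* because it holds the only match to a Runx motif. The core motif bound by Runx proteins, TGTGGT, was searched on both strands in the 250 bases before the start of the canonical transcript of each gene, on GRCm39 with Gencode M39. It was found in 1 of the 10 genes, *Runx1*, where ACCACA, its reverse complement, begins 233 bases before the start and is printed in capitals. Of 21770 promoters of protein-coding genes, 13% hold a match. The motif AGATAA, of the kind GATA factors bind, was found in 0 of the 10 and in 9.6% of the 21770 promoters. A match is a description of the letters, and the *Cd4* silencer and the enhancers of *Cd8a* lie outside these windows. For *Cd4*, *Runx3*, *Zbtb7b*, *Gata3* and *Patz1* the window lies inside the gene as annotated, so starts further upstream were not searched. The window of *Runx3* was at chr4:134879557-134879806, while the gene starts at 134847952. The sequences run 5′ to 3′ on the strand of the gene, at chr6:71350161-71350410 on the plus strand for *Cd8a*, chr6:124865185-124865434 on the minus strand for *Cd4* and chr16:92623038-92623287 on the minus strand for *Runx1*.
Cd8a: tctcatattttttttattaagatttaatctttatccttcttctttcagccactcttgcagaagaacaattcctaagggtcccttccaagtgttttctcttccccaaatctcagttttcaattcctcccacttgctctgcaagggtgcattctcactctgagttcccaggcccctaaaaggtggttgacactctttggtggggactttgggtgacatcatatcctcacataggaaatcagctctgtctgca
Cd4: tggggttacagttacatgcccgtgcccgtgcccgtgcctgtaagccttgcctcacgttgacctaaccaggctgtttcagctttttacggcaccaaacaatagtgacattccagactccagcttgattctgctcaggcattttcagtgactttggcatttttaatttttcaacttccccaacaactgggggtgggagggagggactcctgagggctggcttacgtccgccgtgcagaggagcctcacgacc
Runx1: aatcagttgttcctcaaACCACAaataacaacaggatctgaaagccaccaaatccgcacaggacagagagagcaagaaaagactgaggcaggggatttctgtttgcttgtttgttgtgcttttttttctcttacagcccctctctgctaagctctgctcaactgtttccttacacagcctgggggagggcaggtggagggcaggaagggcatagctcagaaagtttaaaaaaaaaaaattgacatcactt

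None of the 10 genes passed the test for a change in BIT mice. By limma-voom with Benjamini-Hochberg adjustment over all genes, 0 of the 10 passed an adjusted p of 0.05, against 0.137% of all genes tested (0.0807% higher and 0.0559% lower), and their adjusted p values lay between 0.663 and 0.999. At an unadjusted p below 0.05 the number was also 0, where 8.57% of all genes tested passed (4.25% higher and 4.32% lower). The groups overlapped for each of the 10 genes, whereas 13.3% of all genes had every BIT library on the same side of every WT library. Fitted log2 fold changes of BIT against WT were positive for 7 genes and negative for 3, with a median of 0.08 beside 0.01 over all genes tested. EdgeR also called 0 of the 10, at an adjusted as well as at an unadjusted p of 0.05, and so did DESeq2, which gave no adjusted p for *Cd4* and *Cd40lg*. For the 7 genes above 1 CPM per kb, the 95% intervals of the fold change ran from 0.771-fold at the lowest to 1.27-fold at the highest. For *Zbtb7b*, *Cd40lg* and *Cd4* they ran from 0.303-fold to 2.14-fold. A fall of 2-fold for *Cd4*, and a change of 2-fold in either direction for *Cd40lg*, lay inside the 95% interval and was not excluded.

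**Figure D2:**
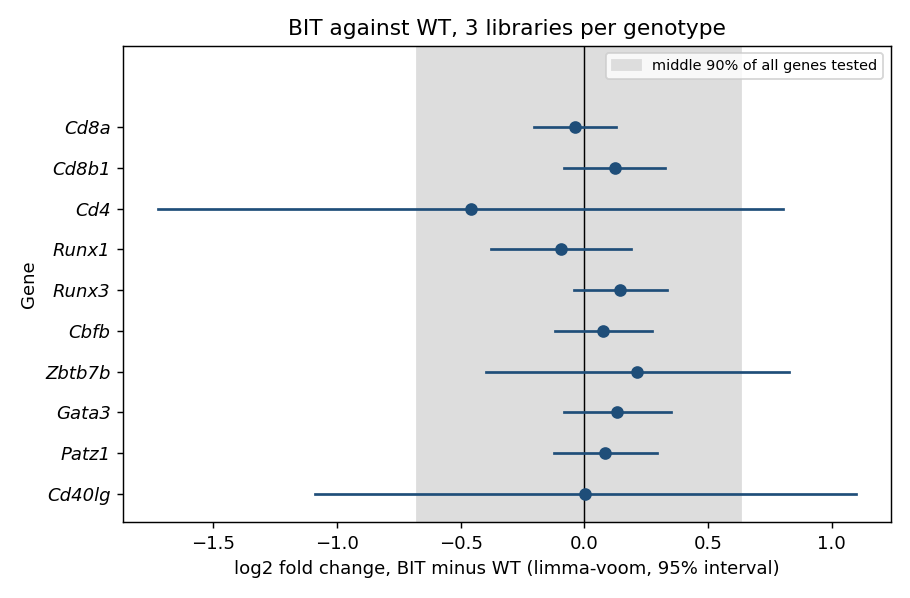
Log2 fold change of BIT against WT mice for the 10 genes (points, limma-voom, 3 libraries per genotype) with 95% intervals (lines), over the range that holds the middle 90% of all 16105 genes tested (gray, from -0.68 to 0.63). Every interval includes 0, and those of *Cd4*, *Cd40lg* and *Zbtb7b* are the widest.

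*Cd8a*, which encodes the α chain that recruits the kinase Lck, varied least of the 10 genes over the libraries (SD of 0.0392 on the normalized log2 CPM scale, n = 6). It lies on the plus strand of chromosome 6 from 71350411 to 71356157 on GRCm39, with 5 exons in its canonical transcript. Its level was 842, 776 and 754 CPM in WT mice and 770, 768 and 771 CPM in BIT mice. On this scale the BIT libraries lay within the range of the WT libraries, and after normalization 0 of 3 lay above the WT mean. The fold change in BIT mice was 0.974 (95% interval from 0.868 to 1.09, adjusted p = 0.906 from limma-voom).

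*Cd8b1* encodes the β chain, which pairs with CD8α on conventional CD8+ T cells and lies beside *Cd8a* on chromosome 6, from 71299772 to 71315087. It was at 1098, 1037 and 1081 CPM in the WT libraries and at 1091, 1265 and 1129 CPM in the BIT libraries. BIT replicate 2 was the highest of all 6 libraries, and BIT replicate 1 lay below WT replicate 1. The fold change was 1.09 (95% interval from 0.946 to 1.25, adjusted p = 0.724 from limma-voom), with 3 of 3 BIT libraries above the WT mean after normalization.

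*Cd4*, which encodes the coreceptor for MHC class II, lies on the minus strand of chromosome 6 from 124841655 to 124874758. Only 38, 25 and 17 counts were found in WT mice, against 8, 28 and 12 in BIT mice. BIT replicate 2 lay among the WT libraries and BIT replicates 1 and 3 lay below them. The counting error alone was wide, as the exact 95% Poisson interval was from 0.0772 to 0.352 CPM in BIT replicate 1 and from 0.508 to 0.986 CPM in WT replicate 1. In BIT mice the fold change was 0.727 (95% interval from 0.303 to 1.74, adjusted p = 0.836 from limma-voom). Its log2 value of -0.46 ran from -0.97 without BIT replicate 2 to -0.08 without WT replicate 1. The 8 markers of CD4+ T cells, with *Cd4*, *Cd40lg* and *Zbtb7b* among them, summed to between 44.2 and 57.9 CPM in WT and between 33.2 and 34.9 CPM in BIT libraries, and without these 3 genes to between 41.6 and 53 CPM and between 29.2 and 32.2 CPM. All 8 were tested, none was at 0, and *Izumo1r* and *Ctla4* were lower at an unadjusted p below 0.05. Without *Izumo1r*, the sums of the genotypes overlapped, at between 22.2 and 32.1 CPM in WT and between 22 and 22.8 CPM in BIT libraries. Most of that remaining sum was from *Icos*, at between 15.4 and 21.1 CPM over the libraries. *Ctla4* was still lower in every BIT library (at most 1.31 CPM, against at least 2.17 CPM in WT). So was *Foxp3* (at most 0.642 CPM, against at least 0.751 CPM), but its closest libraries were at 27 counts (BIT replicate 2) and 30 counts (WT replicate 3). The adjusted p of *Foxp3* was 0.723 from limma-voom. *Icos*, *Tnfrsf4*, *Cd4*, *Cd40lg* and *Zbtb7b* overlapped between the genotypes. The part of CD4+ T cells in the values of *Cd4*, *Cd40lg* and *Zbtb7b* was not tested.

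*Runx3* encodes the Runx factor that maintains the CD8 lineage and lies on chromosome 4 from 134847952 to 134905301. Counts of 10792, 8149 and 7261 were found in WT mice, against 8936, 9196 and 7969 in BIT mice. After normalization, BIT replicates 1 and 2 lay above every WT library and BIT replicate 3 between WT replicates 1 and 2. The fold change was 1.11 (95% interval from 0.972 to 1.26), and its adjusted p of 0.663 from limma-voom was the lowest of the 10 genes. Without WT replicate 1 the unadjusted p from limma-voom was 0.0476 (adjusted p = 0.662), and no other member passed that level in any fit.

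*Runx1*, the Runx factor of thymocytes and stem cells, lies on chromosome 16 from 92398354 to 92623037. Counts of *Runx1* were 2828, 2404 and 2636 in WT mice, against 2214, 2027 and 2428 in BIT mice. On the normalized log2 CPM scale, these were 5.74, 5.69 and 6.01 against 5.66, 5.56 and 5.95. The highest value of each genotype was that of replicate 3. In BIT mice the fold change was 0.938 (95% interval from 0.771 to 1.14, adjusted p = 0.856 from limma-voom), and its log2 value was 0.00 without WT replicate 3. The deposited values are sums over all transcripts of a gene, so the forms that start at the distal and the proximal promoter of *Runx1* or *Runx3* are not resolved.

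*Cbfb* encodes the subunit CBFβ, which does not bind DNA itself but strengthens the binding of Runx proteins, and it lies on chromosome 8 from 105897291 to 105944633. It was at 184, 159 and 156 CPM in WT mice and 183, 180 and 185 CPM in BIT mice. The BIT libraries lay close together and the WT libraries reached lower, while WT replicate 1 lay among the BIT libraries. The fold change was 1.05 (95% interval from 0.92 to 1.21, adjusted p = 0.824 from limma-voom).

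*Zbtb7b*, the gene of the CD4-lineage factor ThPOK, lies on the minus strand of chromosome 3 from 89284942 to 89302144. WT mice had 101, 83 and 163 counts of it, and BIT mice 93, 100 and 122. WT replicate 3 was the highest of all libraries at 4.08 CPM (exact 95% Poisson interval from 3.48 to 4.76 CPM, counting error only), and WT replicate 2 the lowest at 1.64 CPM (from 1.31 to 2.03 CPM). The 3 BIT libraries lay between these. In BIT mice the fold change was 1.16 (95% interval from 0.759 to 1.78, adjusted p = 0.843 from limma-voom), and its log2 value ran from 0.00 to 0.46 with each mouse left out, the highest without WT replicate 3. The antisense gene *Gm15417* shares 1395 exon bases with *Zbtb7b* and had between 2 and 7 counts per library.

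*Gata3* encodes a zinc finger factor that all T cells need and that promotes the CD4 lineage at higher levels. It lies on the minus strand of chromosome 2 from 9861889 to 9894845. Its levels were 54.8, 42.9 and 54 CPM in WT mice and 54.5, 62.2 and 55.5 CPM in BIT mice. WT replicate 2 was the lowest and BIT replicate 2 the highest. The fold change was 1.1 (95% interval from 0.944 to 1.27, adjusted p = 0.718 from limma-voom). *Patz1*, the gene of the repressor MAZR, lies on chromosome 11 from 3238874 to 3259085. It was at 65.2, 58.1 and 71.9 CPM in WT mice and 63.6, 70.5 and 81.1 CPM in BIT mice, with replicate 3 the highest of each genotype. Its fold change was 1.06 (95% interval from 0.918 to 1.23, adjusted p = 0.816 from limma-voom). The antisense gene *Gm12592*, with between 143 and 344 counts per library, shares 655 exon bases with *Patz1*, and the strand setting of the counting is not given in the sources used here, so that reads over the shared bases cannot be assigned with certainty.

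*Cd40lg* lies on chromosome X from 56257405 to 56269902. Its raw counts were as low as those of *Cd4*, at 41, 22 and 17 in WT mice and 17, 26 and 16 in BIT mice. WT replicate 1 was the highest, and the other 5 libraries of both genotypes lay among each other. The log2 fold change was 0.00 (95% interval from -1.09 to 1.1, adjusted p = 0.999 from limma-voom). Its sign depended on the scaling, being -0.19 with TMM normalization, which scales each library by 1 factor.

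Ratios of pairs of these genes within a library do not depend on how libraries are scaled to each other. For *Cd8b1* to *Cd8a*, the ratio of counts was 1.3, 1.34 and 1.43 in WT mice and 1.42, 1.65 and 1.47 in BIT mice. BIT replicate 2 was highest, and BIT replicate 1 lay just below WT replicate 3. The log2 ratio was 0.44 ± 0.0712 (SD, n = 3) in WT and 0.591 ± 0.114 (SD, n = 3) in BIT mice, a difference of 0.152 (exact permutation test, two-sided, p = 0.2). For every 1000 counts of *Cd8a*, the WT libraries had 0.853, 0.637 and 0.564 counts of *Cd4*, and the BIT libraries 0.232, 0.867 and 0.415. The lowest and the highest of these 6 ratios were both from BIT mice (difference in log2 ratio -0.624, exact permutation test, two-sided, p = 0.5), and the difference ran from -1.12 to -0.17 with each mouse left out.

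The ratio of *Runx3* to *Runx1* counts was 3.82, 3.39 and 2.75 in WT mice and 4.04, 4.54 and 3.28 in BIT mice. Within each genotype replicate 3 had the lowest ratio, and the genotypes overlapped. The difference in log2 ratio was 0.251 (exact permutation test, two-sided, p = 0.3). For every 1000 counts of *Runx3* there were 9.36, 10.2 and 22.4 counts of *Zbtb7b* in WT mice and 10.4, 10.9 and 15.3 in BIT mice. The difference in log2 ratio was -0.102 (exact permutation test, two-sided, p = 1) and 0.30 without WT replicate 3. After Benjamini-Hochberg adjustment over the 4 ratios, the exact permutation p values were 0.6 for *Cd8b1* to *Cd8a* and for *Runx3* to *Runx1*, 0.667 for *Cd4* to *Cd8a* and 1 for *Zbtb7b* to *Runx3*. With 3 libraries against 3 the smallest p of this test is 0.1, so that it cannot pass 0.05.

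**Figure D3:**
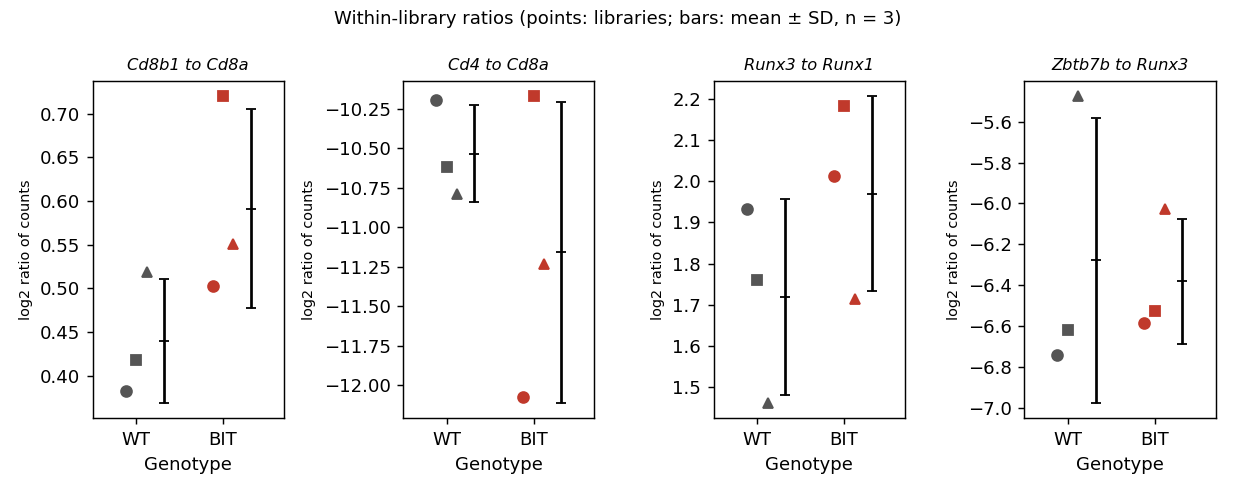
Log2 ratio of the counts of 2 genes within each library (points, 1 per library, with circles, squares and triangles for replicates 1, 2 and 3) in WT (gray) and BIT (red) mice, with the mean and SD of 3 libraries (bars) and a separate axis for each ratio. WT and BIT libraries overlap in all 4 ratios, and WT replicate 3 stands above the other libraries in *Zbtb7b* to *Runx3*.

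Of the 10 genes, *Runx1* differed between the replicate 3 libraries and the others, a comparison chosen after the values were seen. *Runx1* was at 5.95 and 6.01 on the normalized log2 CPM scale in the libraries numbered 3 and between 5.56 and 5.74 in the other 4. With genotype in the same limma-voom fit, *Runx1* was higher in replicate 3 by 0.31 on the log2 scale (SE 0.0717, adjusted p = 0.0475). It was the 1 of 10 members called, where 4.5% of all genes tested were called (3.76% higher and 0.733% lower). Without WT replicate 3, the library that went against its label, replicate 3 is the BIT library alone, assumed to vary like the others, and the difference was 0.34, for which limma-voom gave an adjusted p of 0.293.

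On the normalized log2 CPM scale, both libraries numbered 3 lay outside the range of the other 4 for 5 of the 10 members, and for 34.1% of all genes tested. *Runx1*, *Zbtb7b* and *Patz1* were above, and *Cbfb* and *Cd40lg* were below. The places of *Cbfb* and *Cd40lg* depended on the normalization. In CPM, *Cbfb* was highest in BIT replicate 3 (184.9 CPM) and *Cd40lg* was lowest in BIT replicate 1 (0.3798 CPM). *Zbtb7b* differed by 0.46 (SE 0.218, adjusted p = 0.228 from limma-voom) and by 0.13 without WT replicate 3. *Patz1* differed by 0.17 (adjusted p = 0.189 from limma-voom), *Cbfb* by -0.15 (adjusted p = 0.221) and *Cd40lg* by -0.89 (adjusted p = 0.283). What sets the libraries numbered 3 apart is not given by the labels and was not tested.

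**Figure D4:**
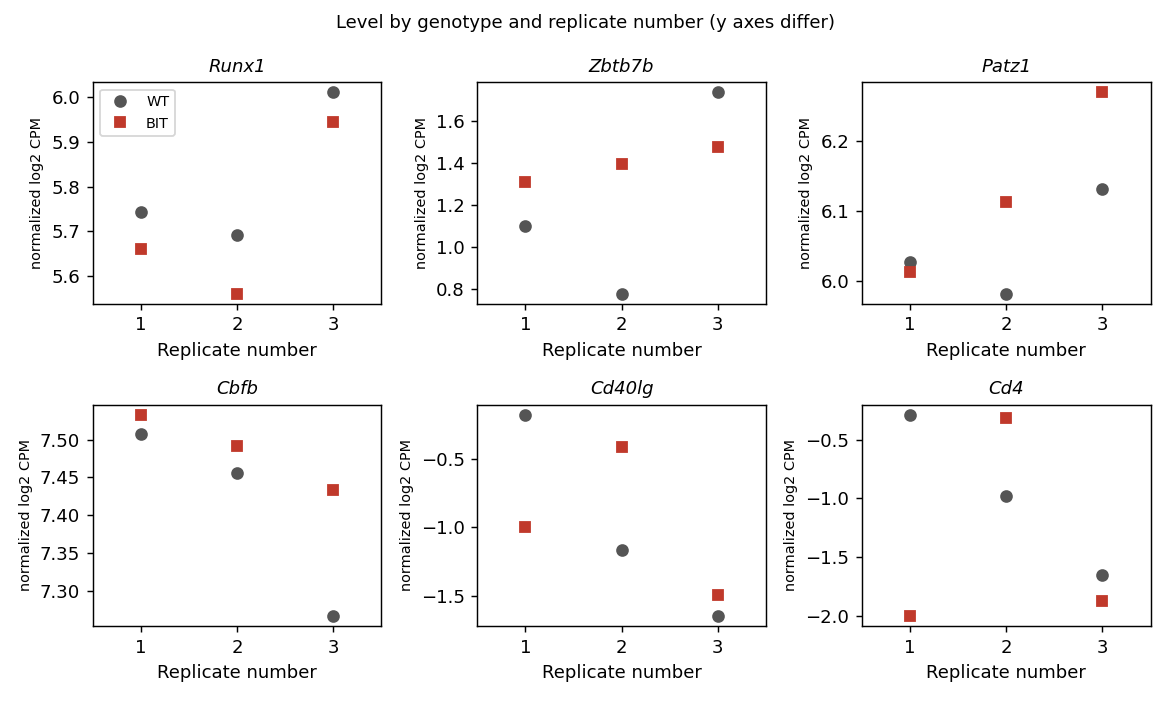
Normalized log2 CPM of 6 of the 10 genes by replicate number in WT (gray circles) and BIT (red squares) mice, 1 point per library, with a separate axis for each gene. In replicate 3 both genotypes are above all other libraries for *Runx1*, *Zbtb7b* and *Patz1* and below them for *Cbfb* and *Cd40lg*, while for *Cd4* the BIT library of replicate 1 is the lowest.

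Other genes of the pathway were read from the same fit in 3 lists. Of 30 regulators of the coreceptors and of the lineage factors, 0 passed an adjusted p of 0.05 by limma-voom. At an unadjusted p below 0.05, 3 were higher and 1 lower in BIT mice (13.3% of the list, against 8.57% of all genes tested), and the median log2 fold change of the list was 0.06. The lowest unadjusted p values of the list were those of *Il7r*, the receptor chain for IL-7, and of *Runx2*, the other Runx gene. For *Il7r*, counts were 36388, 29330 and 28193 in WT mice, against 42945, 39502 and 39767 in BIT mice, and every BIT library was above every WT library (log2 fold change 0.54, adjusted p = 0.154 from limma-voom). *Runx2* had 655, 521 and 810 counts against 809, 979 and 1119 (log2 fold change 0.78, adjusted p = 0.441 from limma-voom). After normalization, WT replicate 3 and BIT replicate 1 overlapped for *Runx2*, at 4.26 and 4.24 log2 CPM.

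Of 12 effector genes of the CD8 lineage, many of them targets of Runx3 or of T-box factors, 0 passed an adjusted p of 0.05 by limma-voom. At an unadjusted p below 0.05, 4 were higher and 4 lower (66.7% of the list, against 8.57% of all genes tested), with a median log2 fold change of -0.06. *Eomes*, a T-box factor of memory and effector CD8+ T cells, had 4314, 3644 and 4088 counts in WT and 5917, 6535 and 5120 in BIT libraries (log2 fold change 0.69, adjusted p = 0.112 from limma-voom). Once WT replicate 3 was left out, *Eomes* passed the threshold in limma-voom (log2 fold change 0.80, adjusted p = 0.0271). *Eomes* also passed in limma-voom using sample quality weights (adjusted p = 0.0209) or replicates 1 and 2 alone (adjusted p = 0.0146), and in DESeq2 (adjusted p = 5.12e-06). In the other 11 of the 15 alternatives it did not pass. *Itgae*, which encodes CD103 and is a known target of Runx3, had 8673, 7343 and 4971 counts in WT and 5186, 4177 and 3699 in BIT libraries (log2 fold change -0.53, adjusted p = 0.372 from limma-voom). The groups did not overlap after normalization in either gene, with *Eomes* the higher in BIT mice and *Itgae* the lower.

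Of 10 genes with higher expression in CD4-lineage or regulatory T cells, *Izumo1r*, which encodes folate receptor 4, fell in BIT mice. Its counts were 1144, 1111 and 1031 in WT mice, against 574, 483 and 420 in BIT mice (log2 fold change -0.96, adjusted p = 0.0399 from limma-voom). With each mouse left out in turn it passed only without WT replicate 3, and its adjusted p from limma-voom reached 0.277 without BIT replicate 2. *Ctla4*, an inhibitory receptor, had 115, 129 and 170 counts against 42, 23 and 49 (log2 fold change -1.57, adjusted p = 0.228 from limma-voom). *Izumo1r* and *Ctla4* are also among the CD4+ T cell markers whose sum is given above beside *Cd4*, so that this sum is no separate measure of CD4+ T cells for them. In all, 2 genes of this list were higher and 4 lower at an unadjusted p below 0.05 (60% of the list, against 8.57% of all genes tested), and its median log2 fold change was -0.45. *Cd4*, *Cd40lg* and *Zbtb7b*, whose fold changes are given above, were not among the 10. All 3 lists and the members were picked with earlier results of these data known, so that these counts and medians are a description.

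**Figure D5:**
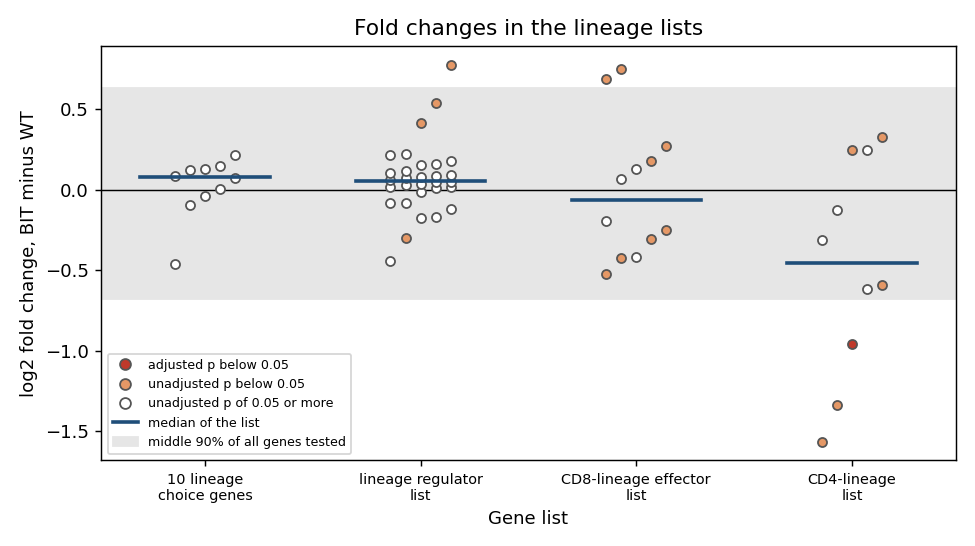
Log2 fold change of BIT against WT mice for the 10 lineage choice genes and the genes of the 3 lists (points, limma-voom, 3 libraries per genotype, red at an adjusted p below 0.05, orange at an unadjusted p below 0.05, otherwise open), with the median of each (lines) and the range of the middle 90% of all genes tested (gray). None of the 10 genes is filled, while *Izumo1r* at -0.96 in the CD4-lineage list is the only gene plotted that is past an adjusted p of 0.05.

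The members that varied most over the 6 libraries were *Cd4* (SD of 0.77 on the normalized log2 CPM scale, n = 6) and *Cd40lg* (SD of 0.586). The genes with the nearest profile to *Cd4*, by the root mean square difference of centered log2 CPM over the 6 libraries, were *Cdh23* (0.133), *Klhl35* (0.194) and *Gm57366* (0.237). For *Cd40lg* they were *Gm14269* (0.148), *Gm61330* (0.149) and *Trav12d-2* (0.15). All 6 genes were, like *Cd4* and *Cd40lg*, below 1 log2 CPM in every library, where counting error is large.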

How the data were processed

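RNA of 3 WT and 3 BIT mice was analyzed, grouped by the sample labels. The authors deposited estimated counts per gene, made with RSEM 1.3.1 from Gencode M38 after alignment by STAR 2.7.0f to GRCm39 and trimming by Cutadapt 1.18 (versions per the submitters' processing notes). The library preparation was stranded and removed ribosomal RNA. These counts are not normalized, and they were rounded here. Totals are given with the results. Following the study's methods, limma-voom (limma 3.58.1) with quantile normalization was fitted in R 4.3.3 after a filter on low counts (filterByExpr, edgeR 4.0.16). P-values were adjusted by Benjamini-Hochberg over all genes kept, and the threshold was 0.05. A shift of most genes in 1 direction would not be seen. Positions and exon lengths are from Gencode M39, matched by identifier without version. Other fits used DESeq2 1.42.0, the quasi-likelihood test of edgeR, TMM normalization, other filters, sample quality weights, a replicate block, a term for replicate 3, each mouse left out, and replicates 1 and 2 alone, the last added after seeing the data. The fits were tested on simulated data, with changes placed only in genes of higher level than *Zbtb7b*, *Cd40lg* and *Cd4*. Genes named are the 10 members, *Psmb8*, *Psmb11*, *Xist*, markers, in each list any gene past the threshold and the 2 with the lowest p, and the 3 nearest profiles to the 2 most variable members. Overlapping genes, and the genes left out of marker sums, were named after their values were seen. The members and lists were chosen with earlier results of these data known. P-values measure the spread between mice.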

Additional observations from a re-analysis of the deposited data

How the results depend on the processing

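Of the 10 members, 0 passed an adjusted p of 0.05 under any of the 15 alternatives. Of 148 fold changes of single members recomputed, 137 kept their direction and 11 changed it, 10 of them of *Cd40lg* and 1 of *Runx1*. *Cd4* and *Cd40lg* were not tested with a mean of at least 1 CPM and had no adjusted p from DESeq2. For *Cd40lg* the log2 fold change was -0.19 with TMM normalization, -0.21 with edgeR, -0.21 with DESeq2, -0.16 with sample quality weights, -0.0057 with a term for replicate 3, -0.054 in replicates 1 and 2 alone and from -0.28 to 0.46 with each mouse left out. For *Runx1* it was from -0.20 to 0.0011 with each mouse left out, the highest without WT replicate 3. The log2 ratio of *Zbtb7b* to *Runx3* was from -0.33 to 0.30 with each mouse left out (0.30 without WT replicate 3 and 0.0018 without BIT replicate 1) and 0.12 in replicates 1 and 2 alone.

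The number of genes changed, 22 of all genes tested, was 14 with edgeR, 125 with DESeq2, 42 with a term for replicate 3, 71 in replicates 1 and 2 alone and from 1 (without WT replicate 1) to 37 (without WT replicate 3) with each mouse left out. For the lineage regulator list it was 1 with DESeq2, 1 with no filter on low counts and 2 with a term for replicate 3. For the CD8-lineage effector list it was 1 with DESeq2, 1 with sample quality weights, 2 in replicates 1 and 2 alone and from 0 to 2 with each mouse left out, the 2 being without WT replicate 3. For the CD4-lineage list it was 3 with DESeq2, 0 with no filter and from 0 to 1 with each mouse left out. The cause of these differences was not tested.

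The labels do not say that a replicate number marks a shared litter or day, and the numbers were not taken as pairs, as the correlations of their deviations from the group means were 0.139, 0.0255 and 0.332, and WT replicate 2 correlated better with BIT replicate 1 (0.244) than with its own number. The libraries numbered 3 correlated best with each other. With the replicate block, 21 genes were changed, the CD4-lineage list had 0, and the log2 fold change of *Cd40lg* was -0.0407. Counts of *Cd4* and *Cd40lg*, at most 41 per library, limit what can be seen in these genes.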
